A study of Homo sapiens with 4 samples.

Results

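The miR-26 family was followed in extracellular vesicles (EVs) released by MDA-MB-231, a human cell line long established from triple-negative breast cancer. Its members here were the rows named hsa-miR-26a-5p and hsa-miR-26b-5p, and both were listed for all 4 libraries. They are 2 of the 1619 miRNAs listed in either of the count tables. The study asked which miRNAs change in EVs when cancer cells lack glucose. The control group (Ctrl EV) came from wild-type (WT) MDA-MB-231 cells given EV-free DMEM for 12 h, and the glucose-free group (-G EV) from the same line given glucose-free medium for 12 h. Each group had 2 libraries, numbered replicate 1 and replicate 2. Every group was 1 unmodified cell line grown beforehand with fetal bovine serum, and the labels do not say whether the replicates came from separate cultures, so p-values of the models fitted over all libraries measure a spread that may be technical. The number also marked the library preparation. Replicate 1 of both media was made from RNA pretreated to remove modifications that hinder adapter ligation and reverse transcription, and for replicate 2 of both media the labels name a TruSeq RNA sample preparation kit for the RNA and an NEBNext small RNA kit for the libraries. A pair below means the Ctrl EV and -G EV libraries that share a number.

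MiRNAs are short RNAs that guide Argonaute proteins to messenger RNAs, and the bases near their 5′ end, the seed, set most of the pairing. The miR-26 guides are widely expressed, lie in introns of genes for small phosphatases that act on the C-terminal domain of RNA polymerase II, and are mostly described as growth-restraining. Reported targets of the family include EZH2, the methyltransferase of the Polycomb repressive complex, and LIN28B, a protein that blocks the maturation of let-7 miRNAs.

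The mature sequences show why both members are treated as a family, and where reads can tell them apart. They are given 5′ to 3′ from RefSeq (GRCh38.p14), where 2 of 2 members were found, and the capitals mark the seed, bases 2 to 8. The last pair of lines holds the only other mature human miRNAs in that table with the same seed, which made 4 of 2370.
hsa-miR-26a-5p: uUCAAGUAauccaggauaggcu
hsa-miR-26b-5p: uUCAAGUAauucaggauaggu
hsa-miR-1297: uUCAAGUAauucaggug
hsa-miR-4465: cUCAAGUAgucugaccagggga

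Counted from 1 at the 5′ end, hsa-miR-26b-5p differs from hsa-miR-26a-5p by C11U and C21U, and it has 21 bases where hsa-miR-26a-5p has 22. The first 10 bases of both are the same, so the members are told apart outside the seed. Hsa-miR-1297 shares its first 15 bases with hsa-miR-26b-5p. It was listed for replicate 1 only, with 1 read in Ctrl EV and 0 in -G EV, and hsa-miR-4465 had 1 read in each of these libraries. Reads carrying this seed therefore came almost wholly from the 2 members in replicate 1.

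Hsa-miR-26a-5p is made from a pair of hairpins with the same mature sequence, so its reads do not show which gene they came from. MIR26A1 lies at chr3:37969404-37969480 on the plus strand, in intron 5 of the principal transcript of CTDSPL. MIR26A2 lies at chr12:57824609-57824692 on the minus strand, in intron 5 of the principal transcript of CTDSP2. Hsa-miR-26b-5p comes from MIR26B alone, at chr2:218402646-218402722 on the plus strand, in intron 4 of the principal transcript of CTDSP1. Each hairpin is on the strand of its host gene and outside the exons of all coding transcripts that span it, 3 for CTDSPL, 5 for CTDSP2 and 4 for CTDSP1 (GENCODE release 29, GRCh38).

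The libraries differed widely in depth and make-up. Replicate 1 held 18397 reads in Ctrl EV and 15597 in -G EV, and replicate 2 held 224966 and 170894. Levels are given in CPM, the reads of a miRNA over the library total times 1000000, and 1 read was worth 54.4 and 64.1 CPM in replicate 1 and 4.45 and 5.85 CPM in replicate 2. Because CPM values are shares of a library, they cannot tell fewer copies in the EVs from more of something else. Hsa-miR-182-5p alone took 51.0% of Ctrl EV replicate 1, 2.73% of -G EV replicate 1 and 0.254% and 0.25% of the same groups in replicate 2. A list of 5 miRNAs typical of basal-like cancer lines (hsa-miR-21-5p, hsa-miR-221-3p, hsa-miR-222-3p, hsa-miR-100-5p and hsa-miR-125b-5p) had reads for 5 of 5 in every library, from 2.14% to 3.04% of reads in replicate 1 and from 33.8% to 42.6% in replicate 2. The epithelial miR-200 family, which is low in this mesenchymal line, had reads for 5 of 5 as well but took from 0.0187% to 0.526%.

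Hsa-miR-26a-5p was among the abundant miRNAs of every library. It had 56 reads in Ctrl EV replicate 1, or 3044 CPM (95% Wilson interval 2345 to 3950), and 103 reads in -G EV replicate 1, or 6604 CPM (5449 to 8002). In replicate 2 it had 2303 reads in Ctrl EV, or 10237 CPM (9829 to 10662), and 1156 reads in -G EV, or 6764 CPM (6387 to 7164). The Ctrl EV libraries thus held both its lowest and its highest level, and the -G EV libraries lay between them. Its rank was 17 of the 484 miRNAs detected in Ctrl EV replicate 1, 20 of 453 in -G EV replicate 1, 17 of 531 in Ctrl EV replicate 2 and 23 of 492 in -G EV replicate 2.

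Hsa-miR-26b-5p was the rarer member in all 4 libraries. It had 15 reads in Ctrl EV replicate 1, or 815 CPM (494 to 1345), and 25 reads in -G EV replicate 1, or 1603 CPM (1086 to 2365). In replicate 2 it had 1453 reads in Ctrl EV, or 6459 CPM (6136 to 6798), and 741 reads in -G EV, or 4336 CPM (4035 to 4659). Its levels followed the preparation, with both libraries of replicate 2 above both of replicate 1. Its rank moved from 61 and 58 in Ctrl EV and -G EV of replicate 1 to 20 and 35 in replicate 2. Read-based intervals and p-values account for counting error alone and hold no spread between libraries. The reads carry no molecular identifiers, and PCR copies of a molecule are counted again. The intervals can therefore be too narrow, and the p-values too small, even for counting error.

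**Figure D1:**
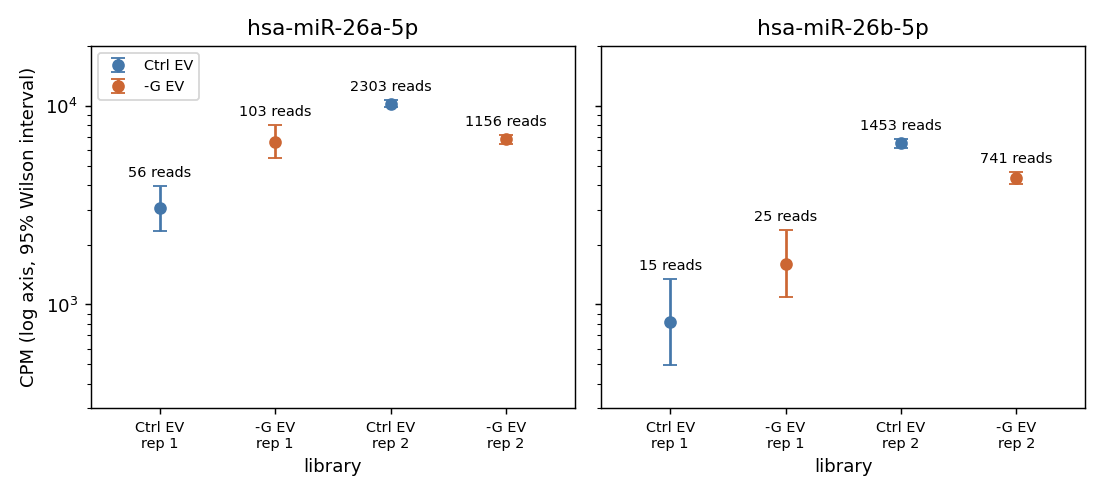
Level of each member in the 4 libraries (CPM, log axis), with 95% Wilson intervals and the number of reads beside each point. Within replicate 1 the -G EV library is the higher, within replicate 2 the Ctrl EV library is, and the intervals of hsa-miR-26b-5p in replicate 1 overlap.

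The members had ratios on opposite sides of 1 in the 2 pairs. In pair 1, hsa-miR-26a-5p was 2.17-fold higher in -G EV than in Ctrl EV (95% exact interval 1.55 to 3.06, Fisher's exact test, adjusted p 4.1e-05). Hsa-miR-26b-5p had a ratio of 1.97 (0.997 to 4.01), which did not pass after adjustment (Fisher's exact test, p 0.0391, adjusted p 0.291). Thus 1 of 2 members was called higher, against 7.91% of the 670 miRNAs tested in that pair. In pair 2, both members were lower in -G EV, with ratios of 0.661 (0.615 to 0.709) for hsa-miR-26a-5p and 0.671 (0.614 to 0.734) for hsa-miR-26b-5p (Fisher's exact test, adjusted p 1.9e-30 and 4.5e-18). Here 2 of 2 were called lower, against 8.74% of 618 miRNAs. These tests are two-sided and compare reads of 2 libraries, not the media.

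The values of pair 1 rested on what the reads were divided by. Once hsa-miR-182-5p was dropped from the denominator, the ratio of hsa-miR-26a-5p in pair 1 was 1.09 (0.782 to 1.54, Fisher's exact test, adjusted p 0.925) and that of hsa-miR-26b-5p was 0.991 (0.502 to 2.02). A difference in pair 1 was then not detectable at this depth. In pair 2 the ratios were 0.661 and 0.671 under both denominators. Against the reads of hsa-miR-16-5p, a miRNA often used as a reference in RT-qPCR, the pairs moved further apart. The ratios in pair 1 were 3.22 (2.30 to 4.54) for hsa-miR-26a-5p and 2.92 (1.48 to 5.95) for hsa-miR-26b-5p, and those in pair 2 were 0.419 (0.390 to 0.450) and 0.426 (0.389 to 0.466). Hsa-miR-16-5p itself went from 70 to 40 reads in pair 1 and from 15834 to 18955 in pair 2.

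The summed share of blood and serum markers was higher in -G EV in pair 1 and lower in pair 2, as the levels of the members were. The list of 7 (hsa-miR-451a, hsa-miR-486-5p, hsa-miR-144-3p, hsa-miR-144-5p, hsa-miR-223-3p, hsa-miR-150-5p and hsa-miR-122-5p) took 20.1% of Ctrl EV and 43.1% of -G EV in replicate 1, and 0.661% and 0.252% in replicate 2. Most of its reads in replicate 1 were hsa-miR-451a, with 3577 of 3706 in Ctrl EV and 6364 of 6728 in -G EV. That miRNA had 295 of 1487 and 68 of 430 in replicate 2. In replicate 1, hsa-miR-144-5p was at 0 in both libraries and hsa-miR-150-5p in Ctrl EV, and all 7 had reads in replicate 2. In pair 1, 5 of 7 were higher in -G EV and 1, hsa-miR-223-3p with 3 and 2 reads, was lower. In pair 2, 7 of 7 were lower. With these 7 out of the denominator, the ratios of hsa-miR-26a-5p were 3.05 in pair 1 and 0.658 in pair 2, and those of hsa-miR-26b-5p were 2.76 and 0.669. Hsa-miR-26b-5p then passed in pair 1 (1.40 to 5.63, Fisher's exact test, adjusted p 0.0169), so that 2 of 2 members were called higher, against 9.79% of 664 miRNAs. With hsa-miR-182-5p out as well, the ratios in pair 1 were 1.16 (0.828 to 1.63) and 1.05 (0.532 to 2.14). The epithelial miR-200 family summed to 17 and 82 reads in pair 1 and to 84 and 32 in pair 2. Of its 5 members, 3 were higher and 2 lower in -G EV in pair 1, and 1 was higher and 4 lower in pair 2. Their part in the values of the members was not tested beyond this.

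**Figure D2:**
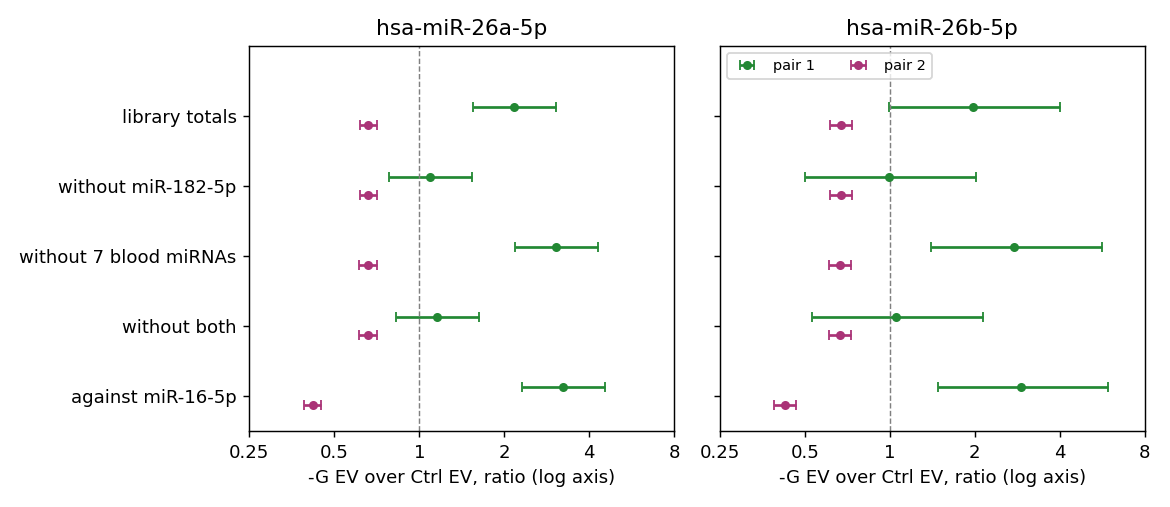
Ratio of -G EV over Ctrl EV (log axis) for each member and pair under 5 choices of what the reads are divided by, with 95% exact intervals; the dashed line marks equal levels. The ratios of pair 2 lie below 1 under every choice drawn, and those of pair 1 have intervals that reach 1 for both members once hsa-miR-182-5p is dropped.

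The difference between the pairs was then tested. The ratio in pair 1 was 3.28 times that in pair 2 for hsa-miR-26a-5p (Zelen's exact test, adjusted p 1.6e-11) and 2.93 times for hsa-miR-26b-5p (Zelen's exact test, adjusted p 0.0120). Both members passed, against 13.9% of the 295 miRNAs that could be tested. Dropping hsa-miR-182-5p from the denominator, the first value was 1.65 (Zelen's exact test, unadjusted p 0.00314) and the second was 1.48 (Zelen's exact test, unadjusted p 0.264). Being called higher in pair 1 and lower in pair 2 held for 5.08% of those 295 miRNAs, 15 in number, and hsa-miR-26a-5p was 1 of them.

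The fitted models over both pairs called no change with the medium for either member, and the exact test stratified by pair called both lower. The log2 fold change of -G EV against Ctrl EV was 0.24 (SE 0.90) for hsa-miR-26a-5p and 0.14 (SE 0.94) for hsa-miR-26b-5p, with the replicate number as a block (edgeR, adjusted p 0.999 for both). In that fit 0% of 384 miRNAs were called, and 5 had an unadjusted p under 0.05, none of them a member. DESeq2 and limma with the same block called 0 as well, with 6 and 13 at an unadjusted p under 0.05. The sign changed with the scaling. With TMM the values were -0.22 and -0.31, where the median of all miRNAs moved from 0.20 to -0.14. The stratified test, which weights pairs by reads and so follows pair 2, gave odds ratios of 0.697 (0.650 to 0.747) and 0.684 (0.626 to 0.747), with adjusted p of 1.4e-24 and 4.3e-17. By that test 38.6% of 295 miRNAs passed, and pair 1 alone gave ratios in the other direction, 2.17 and 1.97.

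No shift in the balance of the members between media was detected in either pair. Hsa-miR-26a-5p made up 78.9% (95% Wilson interval 68.0 to 86.8) of the 71 reads of both members in Ctrl EV replicate 1 and 80.5% (72.8 to 86.4) of 128 reads in -G EV replicate 1. In replicate 2 it made up 61.3% (59.7 to 62.9) of 3756 reads in Ctrl EV and 60.9% (58.7 to 63.1) of 1897 reads in -G EV. This share uses no library total, so neither hsa-miR-182-5p nor the blood miRNAs enter it. The odds of a 26a read in -G EV over those in Ctrl EV were 1.10 (exact interval 0.497 to 2.38) in pair 1 and 0.984 (0.878 to 1.10) in pair 2 (Fisher's exact test, adjusted p 0.854 for both, over 4 comparisons). The interval of pair 2 bounds a shift far more closely than that of pair 1, where a change within 0.497 to 2.38 was not detectable at this depth.

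Between preparations the balance did differ. For each read of hsa-miR-26b-5p, replicate 1 held 3.73 (Ctrl EV) and 4.12 (-G EV) reads of hsa-miR-26a-5p, and replicate 2 held 1.585 and 1.56. The odds of a 26a read were 2.36 times higher in replicate 1 than in replicate 2 for Ctrl EV (Fisher's exact test, adjusted p 0.00566) and 2.64 times higher for -G EV (adjusted p 2.0e-05, Fisher's exact test). The 2 libraries of replicate 1 lay on one side of those of replicate 2 in both media. Preparation and any other difference between the replicates cannot be told apart.

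**Figure D3:**
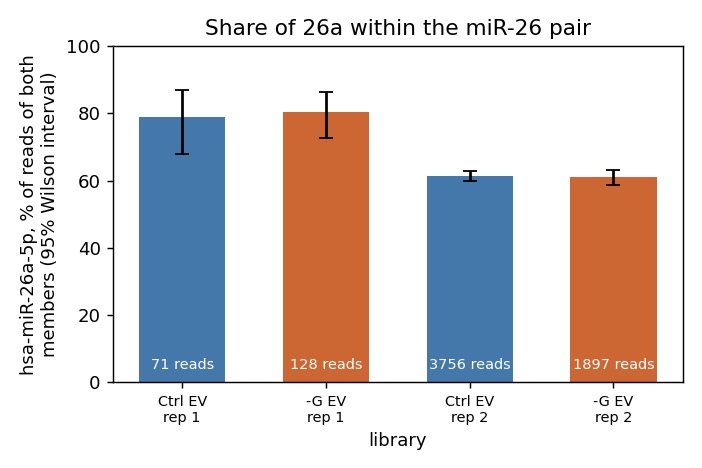
Share of hsa-miR-26a-5p among the reads of both members, in percent, in the 4 libraries; bars start at 0, error bars are 95% Wilson intervals and the number at the foot is the reads of both members. The bars of replicate 1 stand at 78.9% and 80.5% and those of replicate 2 at 61.3% and 60.9%, so the intervals overlap between media and not between preparations.

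The gap between preparations was larger for hsa-miR-26b-5p than for hsa-miR-26a-5p. In Ctrl EV, the level in replicate 2 over that in replicate 1 was 3.36 (2.58 to 4.47) for hsa-miR-26a-5p and 7.92 (4.79 to 14.2) for hsa-miR-26b-5p. Both were called higher in replicate 2, as were 20.5% of 424 miRNAs in that medium. With hsa-miR-182-5p dropped these ratios were 1.65 (1.27 to 2.19) and 3.89 (2.35 to 6.97), and both members still passed (Fisher's exact test, adjusted p 0.00040 and 4.0e-10), as did 10.2% of 423 miRNAs in that direction. In -G EV, hsa-miR-26b-5p was 2.71-fold higher in replicate 2 (1.82 to 4.21, Fisher's exact test, adjusted p 8.0e-08), and 15.3% of 413 miRNAs were called higher there. Hsa-miR-26a-5p had a ratio of 1.02 (0.837 to 1.27) in -G EV, so its levels of 6604 and 6764 CPM were not separated by their counting error. With TMM scaling that ratio was 1.5.

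In order of level over the library totals, hsa-miR-26a-5p ran from Ctrl EV replicate 1 through -G EV replicate 1 and -G EV replicate 2 to Ctrl EV replicate 2, and only the middle neighbours were not separated. Hsa-miR-26b-5p ran from Ctrl EV replicate 1 through -G EV replicate 1 and -G EV replicate 2 to Ctrl EV replicate 2 as well. Its lowest neighbours, both of replicate 1, were the ones not separated. With hsa-miR-182-5p dropped, hsa-miR-26a-5p was not separated within replicate 1 (1.09) or between the -G EV libraries (0.999, which turned their order). Its lowest neighbours were then Ctrl EV replicate 1 and -G EV replicate 2, which were not compared by a test. The lowest levels of hsa-miR-26b-5p changed places (0.991).

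The partner strands of the miR-26 hairpins, which are mostly degraded when the guide is loaded, were near the limit of detection. In replicate 2, hsa-miR-26a-2-3p had 4 reads in Ctrl EV and 3 in -G EV, hsa-miR-26a-1-3p had 1 and 0, and hsa-miR-26b-3p had 0 and 1. In replicate 1, hsa-miR-26a-2-3p and hsa-miR-26b-3p had 0 reads in both libraries, and 3 reads, taken as the limit that a count of 0 allows, would be 163 CPM in Ctrl EV and 192 CPM in -G EV. Hsa-miR-26a-1-3p was listed for replicate 2 only. In replicate 2 the guides thus had at least 741 reads where no partner strand had more than 4, and the strands that would tell MIR26A1 from MIR26A2 were too few to compare.

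The let-7 and miR-98 list was looked at because LIN28B, which blocks let-7 maturation, is a reported target of miR-26. All 9 of 9 had reads in both pairs. In pair 1, 3 of 9 were called higher in -G EV and 0 lower (7.91% and 1.79% of all miRNAs tested), with a median ratio of 1.41 against 1.18 over all 670 miRNAs. Over the 154 miRNAs above 0 in all 4 libraries, all 9 among them, the median ratio in pair 1 was 1.58. The list thus lay above the median of all miRNAs tested and below that of these 154. In pair 2, 1 of 9 was called higher and 7 lower (9.87% and 8.74% of all), with a median ratio of 0.752 against 0.938 over all 618 miRNAs. Hsa-let-7f-5p had 390 and 457 reads in pair 1, a ratio of 1.38 (1.20 to 1.59), and 5780 and 2511 in pair 2, a ratio of 0.572 (0.545 to 0.599). Hsa-let-7i-5p had ratios of 2.26 (1.92 to 2.67) and 0.879 (0.841 to 0.919). These 2 of 9 were called higher in pair 1 and lower in pair 2, as hsa-miR-26a-5p was, against 5.08% of the 295 miRNAs tested in both pairs. Ratios on those sides of 1, of any size, were seen for 7 of 9 and for 35.9% of the 295. Hsa-let-7g-5p was called higher in both pairs, at 1.41 and 1.14. After hsa-miR-182-5p was dropped, 0 of 9 were called higher in pair 1 and 4 lower (2.69% and 5.08% of 669 miRNAs), with a median ratio of 0.708. Hsa-let-7f-5p and hsa-let-7g-5p, called higher over the library totals, were among those called lower, at 0.697 (0.607 to 0.799) and 0.708 (0.596 to 0.843). In the edgeR fit 0 of 9 were called, with a median log2 fold change of -0.13 against 0.20 over all 384 miRNAs.

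Among the 154 miRNAs above 0 in all 4 libraries, 64, or 41.6%, had a ratio above 1 in pair 1 and below 1 in pair 2. The median ratio of the 154 was 1.58 in pair 1 and 0.980 in pair 2. Hsa-miR-26a-5p ranked 58 from the highest ratio in pair 1 and 42 from the lowest in pair 2, and hsa-miR-26b-5p ranked 63 and 44.

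**Figure D4:**
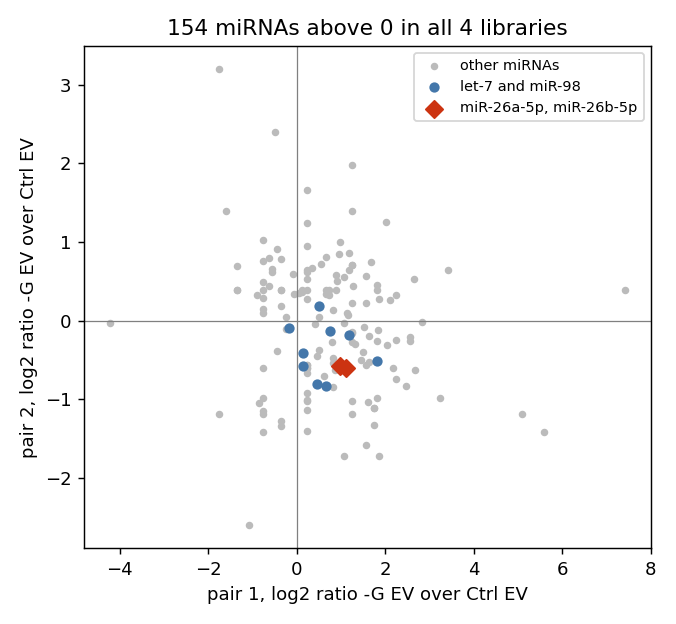
Log2 ratio of -G EV over Ctrl EV in pair 1 (x axis) and pair 2 (y axis) for the 154 miRNAs above 0 in all 4 libraries, with the members as diamonds and the let-7 and miR-98 list in blue. Both members lie in the lower right part with 64 of the 154 miRNAs, near each other and inside the cloud.

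In pair 2, 3 of the 4 other miRNAs listed here as reported to target EZH2 lay on the other side of 1 from the members. Hsa-miR-138-5p had 1208 reads in Ctrl EV and 2077 in -G EV of replicate 2, a ratio of 2.26 (2.11 to 2.43, Fisher's exact test, adjusted p 5.4e-117), where both miR-26 guides were lower. Hsa-miR-101-3p had 816 and 784 reads, a ratio of 1.26 (1.15 to 1.40), and hsa-miR-217-5p had 5 and 15 reads. These 3 of 4 were called higher in pair 2, against 9.87% of 618 miRNAs. Hsa-miR-124-3p had 2 and 0 reads, the same side of 1 as the members, and was not called. In pair 1, 0 of the 3 with reads were called over the library totals, and 1, hsa-miR-101-3p, was called lower with hsa-miR-182-5p dropped, at 0.484 (0.301 to 0.774), where 5.08% of 669 miRNAs were lower. Hsa-miR-101-3p had 43 and 35 reads there, hsa-miR-138-5p and hsa-miR-124-3p had 1 and 0, and hsa-miR-217-5p had none. In the edgeR fit 0 of 4 were called.

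The miRNAs most like each member were sought among the 32 with at least 20 reads in every library, by the Euclidean distance of log2 CPM centred over the 4 libraries. Nearest to hsa-miR-26a-5p were hsa-miR-92a-3p, at a distance of 0.43, hsa-miR-126-3p at 0.58 and hsa-miR-151a-3p at 0.80. Hsa-miR-92a-3p had 60 and 106 reads in pair 1 and 1801 and 1337 in pair 2. Nearest to hsa-miR-26b-5p were hsa-miR-191-5p at 0.70, hsa-miR-103a-3p at 0.90 and hsa-miR-30a-5p at 0.97. The members lay 1.32 apart, so each lay farther from the other member than from its own 3 nearest miRNAs. Hsa-miR-26b-5p itself was under the 20 reads in Ctrl EV replicate 1. The distances are a description over 4 libraries that share preparations in pairs.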

How the data were processed

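Small RNA was sequenced from EVs of MDA-MB-231 cells in 4 libraries. The authors deposited whole-number read counts per mature miRNA in 2 tables, 1 for each replicate number, beside scaled values, which the headers call CPM in the first table and TPM in the second. Both deposited units, CPM and TPM, equalled the count over the library total times 1000000 (largest gap 5.0e-05), so TPM held no length term. The methods of the study describe adapter trimming, removal of other small RNA classes and matching to miRBase, without separating the preparations. Per the labels, the submitters' processing notes name hg38, Bowtie and Bowtie2, and no versions. A mapper's rule for reads shared by near-identical miRNAs was not given in the sources used here.

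Levels were recomputed from counts and library totals. Reads within a pair, or within a medium, were compared by two-sided Fisher's exact tests (SciPy 1.17.1), adjusted by Benjamini-Hochberg over the miRNAs with a read in either library; intervals of ratios are exact conditional ones, and calls were made at an adjusted p below 0.05. The pairs were compared by Zelen's exact test and pooled by an exact stratified test. Across pairs, edgeR 4.0.16 (R 4.3.3) was fitted on counts with library totals and the replicate number as a block, for the 384 miRNAs that both tables list and 2 or more libraries hold above 0; a call also needed an absolute log2 fold change above 1. The labels tie each number to a preparation, and libraries with the same number deviated together from their groups (correlation 0.59 across those miRNAs). DESeq2 1.42.0 and limma 3.58.1 were alternatives. Fisher's test, Zelen's test and the edgeR fit were checked on simulated data. The members, the lists, the tests and the rule for named miRNAs (the members, their partner strands, other carriers of the seed, the let-7 and EZH2 lists, and the 3 likest miRNAs per member) were chosen with earlier results of these data known.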

Additional observations from a re-analysis of the deposited data

Results flagged for a closer look

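Over the library totals, the ratio of -G EV over Ctrl EV differed between the pairs for both members. It was 3.28 times higher in pair 1 than in pair 2 for hsa-miR-26a-5p and 2.93 times for hsa-miR-26b-5p, by a test of the difference itself. For hsa-miR-26a-5p the difference kept its direction after hsa-miR-182-5p was dropped (1.65) and against hsa-miR-16-5p (7.68). For hsa-miR-26b-5p, with 15 and 25 reads in pair 1, it was 1.48 without hsa-miR-182-5p, where it no longer passed (Zelen's exact test, unadjusted p 0.264), and 6.85 against hsa-miR-16-5p. The pairs differ in preparation as well as in depth, and these cannot be told apart.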

How the results depend on the processing

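In the fitted models over both pairs (edgeR, DESeq2 and limma), the sign of the medium contrast depended on the scaling, and no setting of these gave a call for a member. For hsa-miR-26a-5p the log2 fold change was -0.063 with DESeq2, -0.22 with TMM and -0.25 with hsa-miR-182-5p dropped, and for hsa-miR-26b-5p it was -0.14, -0.31 and -0.33. Without the replicate block the values were 0.0078 and -0.29, with adjusted p of 1.00 (edgeR). Leaving out a library or a pair gave -0.61 to 1.13 and -1.19 to 1.87; fits without 1 library had no block and assume that the lone library varies like the others, and a single pair gave no test. The number of miRNAs called over both pairs was 1 without hsa-miR-182-5p and 1 without a filter, in neither case a member. In pair 1 the ratio of hsa-miR-26a-5p was 1.09 without hsa-miR-182-5p, 1.16 without it and the 7 blood miRNAs, and 1.21 with TMM. That of hsa-miR-26b-5p was 0.991 without hsa-miR-182-5p, 2.76 without the blood miRNAs (Fisher's exact test, adjusted p 0.0169) and 2.92 against hsa-miR-16-5p (Fisher's exact test, unadjusted p 0.00528). Its ratio between the pairs was 1.48 without hsa-miR-182-5p. The ratio of hsa-miR-26a-5p between preparations in -G EV was 0.999 without hsa-miR-182-5p, 0.977 over miRNAs in both tables and 1.5 with TMM. Single pairs moved the stratified odds ratio from 0.661 to 2.17 for hsa-miR-26a-5p and from 0.671 to 1.97 for hsa-miR-26b-5p. The removal of hsa-miR-182-5p shrinks the total of Ctrl EV replicate 1 from 18397 to 9018 reads; the cause of the other shifts was not tested. The settings with the blood miRNAs left out, and the alternatives to the test between pairs and to the stratified test, were chosen after seeing the data. Of 84 alternatives, 37 kept direction and side of the threshold by a test, 12 without a test kept direction and moved by less than the spread between pairs or the interval, and 8 kept the count of calls. Of the rest, 18 changed direction, 3 lost a call, 4 moved further, 1 gained a call and 1, against hsa-miR-16-5p, passed 0.05 by an unadjusted p. In pair 2 the ratios of the members kept direction and call in 10 of 10 alternatives that had a test; TMM and the pseudocount had none. Depth limits pair 1 most, where hsa-miR-26b-5p rests on 15 and 25 reads.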
